A study of Mus musculus with 16 samples.

Results

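The replication-dependent histone genes are the intron-poor genes, gathered in clusters, that supply a dividing cell with the histones needed to package newly copied DNA. They were chosen by symbol alone: protein-coding genes named Hist1h, Hist2h, Hist3h or Hist4h, with pseudogenes left out. The rule found 67 genes among the 55359 gene IDs, namely 6 H1, 18 H2A, 18 H2B, 12 H3 and 13 H4 genes. The Hist1 cluster on chromosome 13 holds 54 of them, the Hist2 cluster on chromosome 3 holds 10, the Hist3 cluster on chromosome 11 holds 2, and Hist4h4 lies alone on chromosome 6.

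The series holds 16 total RNA libraries of fetal mouse cortex, taken on gestational day 16. They came from male and from female fetuses whose parents were both unexposed to alcohol (control), of which the father was exposed (paternal), the mother (maternal) or both (dual), with 2 libraries in each of the 8 groups. The labels do not say whether the 2 libraries of a group came from separate litters, so p-values measure only the spread between libraries, part of which may be technical. The sources used here give no strain, dose or timing of exposure.

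DNA is wound around an octamer of the core histones H2A, H2B, H3 and H4, and the linker histone H1 binds where the DNA enters and leaves it. The mRNAs of these genes are made and kept mainly in S phase, when DNA is copied, and in the fetal cortex they come mostly from dividing progenitors near the ventricle. Unlike other mRNAs they end in a stem-loop rather than a poly(A) tail, and the protein Slbp binds that stem-loop. The total RNA kit named in the labels does not depend on a poly(A) tail, so these mRNAs could be counted.

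The stem-loop that defines this mRNA class was found in annotated transcripts of 46 of the 67 genes, against 110 of 21877 protein-coding genes searched. The 110 include these 46. Among the 46, 26 carried the same 16-base core and 7 the second commonest. The sites below belong to genes on which the results turn, each read 5′ to 3′ from GENCODE M21 transcripts with the stem and loop in capitals and 5 flanking bases on each side.
Hist1h1c: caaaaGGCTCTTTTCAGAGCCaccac
Hist1h3a: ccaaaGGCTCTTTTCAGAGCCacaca
Hist3h2ba: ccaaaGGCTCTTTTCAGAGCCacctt
Hist1h3e: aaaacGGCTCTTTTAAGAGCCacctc
Hist1h4h: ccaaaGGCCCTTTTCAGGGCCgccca
Hist2h4: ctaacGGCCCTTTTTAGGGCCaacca
Hist1h1c, Hist1h3a and Hist3h2ba share the commonest core although they encode a linker histone, an H3 and an H2B. The other 21 genes, among them Hist1h1a, Hist1h1b, Hist1h2bl, Hist1h2bn, Hist1h3i and Hist1h4k, had no match in the annotated transcripts, which says only that these letters are not in those models.

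Promoters of 62 of the 67 genes were matched in RefSeq (GRCm38.p6; 250 bases before to 50 after the start). The motif CCAAT, the site of the trimeric factor NF-Y, was present on either strand in 53 of them (85.5%), against 37.4% of all 32851 promoters of this length. It was found in every matched H1, H2A, H2B and H3 promoter and in 3 of 12 H4 promoters (25%). TATAAA was present in 35 (56.5%, against 13.6% of all promoters), and the octamer ATTTGCAT, bound by Pou2f1, in 13 (21%, against 1.74%), all of them H2A or H2B. The H1 motif AAACACA was present in 5 of 6 H1 promoters, against 7.18% of all promoters. Each motif was searched on its own, so matches of different motifs may overlap, and a match describes the letters, not binding.

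Of these genes, 20 stand head to head as 10 pairs of an H2A and an H2B gene. The promoters of a pair overlap, so the same site can be counted for both genes in the motif counts above. The region shared by Hist1h2ae and Hist1h2bg, whose starts are 180 bases apart, is shown because it holds 3 of the motifs between both starts. It lies at chr13:23571150-23571449 (plus strand, GRCm38.p6), and capitals mark every motif found on either strand.
Hist1h2bg: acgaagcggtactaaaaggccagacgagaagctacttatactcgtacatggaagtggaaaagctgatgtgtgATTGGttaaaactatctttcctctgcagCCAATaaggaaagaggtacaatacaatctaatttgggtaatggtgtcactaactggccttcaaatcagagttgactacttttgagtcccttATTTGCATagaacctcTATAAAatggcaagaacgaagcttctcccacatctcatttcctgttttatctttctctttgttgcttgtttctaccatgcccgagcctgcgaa
The H1 gene Hist1h1c is shown for its H1 motif and CCAAT, in capitals (chr13:23738557-23738856, plus strand, GRCm38.p6).
Hist1h1c: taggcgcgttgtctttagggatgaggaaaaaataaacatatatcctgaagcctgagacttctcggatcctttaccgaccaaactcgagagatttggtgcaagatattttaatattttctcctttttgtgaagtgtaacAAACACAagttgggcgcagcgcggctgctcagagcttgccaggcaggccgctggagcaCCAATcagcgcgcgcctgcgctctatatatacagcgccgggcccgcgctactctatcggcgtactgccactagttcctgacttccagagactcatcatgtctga
Hist1h4h, the most abundant H4 gene per length, held none of the 4 motifs and is therefore without capitals (chr13:23530794-23531093, plus strand, GRCm38.p6).
Hist1h4h: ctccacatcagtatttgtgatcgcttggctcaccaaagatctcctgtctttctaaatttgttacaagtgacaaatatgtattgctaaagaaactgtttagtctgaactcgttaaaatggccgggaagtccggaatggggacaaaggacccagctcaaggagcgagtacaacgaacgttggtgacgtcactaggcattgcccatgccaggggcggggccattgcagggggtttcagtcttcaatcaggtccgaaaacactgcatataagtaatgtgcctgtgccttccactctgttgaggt

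Summed counts ran from 15336566 to 19966696 in male and from 26134287 to 35218456 in female libraries, so sex and depth cannot be told apart. Histone genes took 0.298% to 0.683% of the counts. Levels below are CPM, a gene's counts relative to the library's total, scaled by TMM, a method that lines up libraries on the bulk of their genes. The cortical neuron markers Tbr1 and Neurod6 were present in every library at 311 CPM or more. The small non-coding RNA Bc1 was at 35.5 to 62.2 CPM in male and 0.634 to 4.21 CPM in female libraries. The part of such differences between male and female libraries in the results below was not tested. The first female control library had a summed level of meninges markers of 98.7 CPM, against 260 to 684 elsewhere. The female dual libraries had 0.872% and 0.86% of their counts on TEC and sense-intronic genes (unverified models and models inside introns), against at most 0.534% elsewhere.

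Of the 67 genes, 58 had enough counts to be tested. Hist1h1t, Hist1h2aa and Hist1h2ba, which encode histones of the male germ line, were at 56, 0 and 12 counts over all 16 libraries. Hist1h2ao, an H2A gene, was the other gene with too few counts, at 70. Hist1h2aa and 5 Hist2 genes were listed at 0 in all libraries. All exon bases of those 5 Hist2 genes are shared with another annotated gene, and none of their 50-base stretches is unique among annotated transcripts, so a count of 0 does not show that they were silent.

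Per length, H4 genes included the highest level of the family. Hist1h4h was at 634 CPM per kilobase on average over the 16 libraries, Hist1h4k at 461, Hist1h4f at 321 and Hist1h4d at 236. Among H2B genes Hist1h2bn was at 355, Hist1h2bb at 277, Hist1h2bg at 189 and Hist1h2bm at 147 CPM per kilobase. The H1 genes Hist1h1a, Hist1h1b, Hist1h1c and Hist1h1e were at 169, 158, 156 and 111 CPM per kilobase, and Hist1h1d was at 28.6. Before division by length, Hist1h1d was at 212 CPM and Hist1h1e at 213. Their annotated exons span 7425 and 1930 bases, against 312 for Hist1h4k and 381 for Hist1h2bn. The order per length thus depends on the annotated models.

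Among H3 genes Hist1h3i was at 155, Hist1h3c at 149, Hist1h3e at 126 and Hist1h3h at 107 CPM per kilobase. H2A genes were lower: Hist1h2ak was at 74.6, Hist1h2ab at 72.3, Hist1h2ai at 43.9 and Hist1h2af at 35.7 CPM per kilobase. The median level of the 14 tested H2A genes was 24.8 CPM per kilobase, against 81.2 for the 16 H2B, 92.5 for the 10 H3, 113 for the 13 H4 and 156 for the 5 H1 genes. The H2A genes were also the least unique in sequence, with a median of 34% unique 50-base stretches, against 53.1% for H2B, 42.8% for H3, 60.5% for H4 and 97.7% for H1. The sources used here do not say how reads that map to several copies were counted, and its part in the order of the types was not tested. Over the whole family, the 21 genes with under 25% unique 50-base stretches had a median level of 7.86 CPM, against 62 CPM for the 46 others.

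Histone mRNA varied widely from library to library, and its genes varied together. Their summed level was 3564 and 3105 CPM in male controls, 4577 and 4387 in paternal, 5495 and 3827 in maternal and 3454 and 4291 in dual males. In females it was 6860 and 3836 CPM in controls, 4024 and 3953 in paternal, 4273 and 3976 in maternal and 3909 and 2779 in dual libraries. The first female control library stood highest and the second female dual library lowest, 2.47-fold apart. In bulk tissue, fewer dividing cells and less histone mRNA per cell cannot be told apart.

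**Figure D1:**
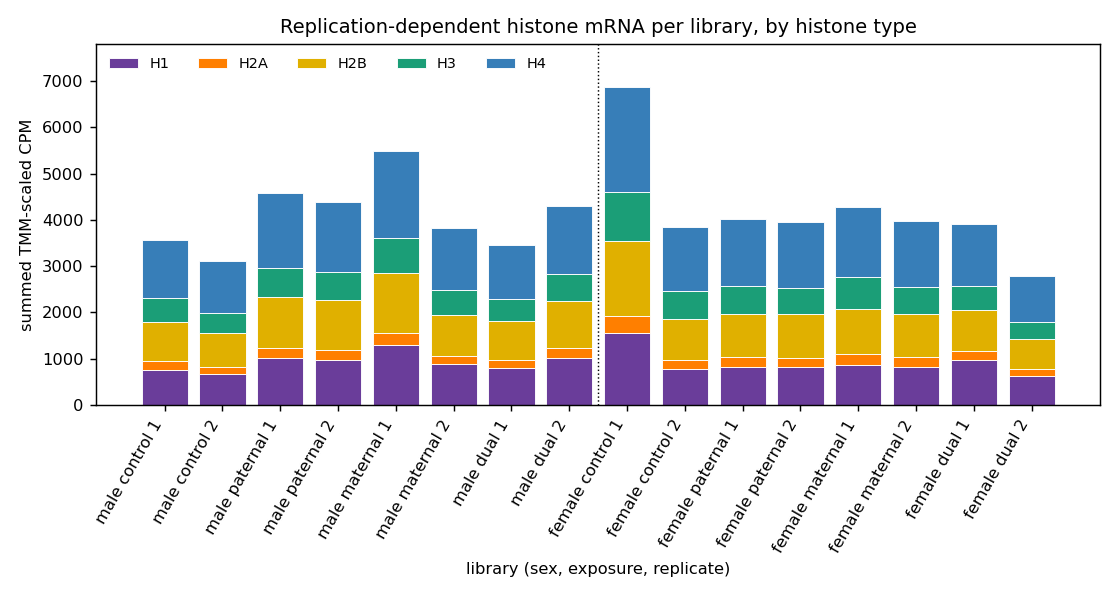
Summed TMM-scaled CPM of the histone genes in each of the 16 libraries, stacked by histone type, with males left and females right of the dotted line. Library totals run from 2779 CPM in the second female dual library to 6860 CPM in the first female control library, and all 5 types follow the total.

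The first female control library was above the second for all 58 tested genes, by 1.07 to 2.79-fold with a median of 1.84-fold. It was the highest of the 16 libraries for 52 of the 58 genes, and the second female dual library was the lowest for 43. By type, the first over the second female control was 2-fold for H1, 1.83-fold for H2A, 1.85-fold for H2B, 1.78-fold for H3 and 1.63-fold for H4. On the log2 scale the median difference between the female control replicates was 0.88. The next were 0.52 in male maternal and 0.49 in female dual libraries.

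As a measure of likeness, each gene's log2 CPM, with a small offset, was correlated over the 16 libraries with the log2 of the summed CPM of the other members. That sum shares libraries and scaling with the gene. The median r was 0.934, and 42 of 58 genes were above 0.9. Counts of histone genes called or not overlapping, given below, are thus not counts of independent observations. Hist1h4f came closest to the family (r = 0.995), followed by Hist1h2bn (0.986), Hist1h2bm (0.982) and Hist1h2bg (0.98). Those departing most were Hist1h2ap (0.105), Hist1h2bq (0.291), Hist3h2a (0.453), Hist1h2br (0.468), Hist2h3c2 (0.489) and Hist2h2be (0.501). Of these, Hist1h2ap, Hist1h2bq and Hist1h2br had few counts, at a mean of 0.33, 1.13 and 0.338 CPM.

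Hist3h2a and Hist2h2be were more abundant and still departed. Hist3h2a, an H2A gene outside the main cluster that shares 708 of its 2146 exon bases with Trim17, ran from 16.4 CPM in the second female control to 27.7 in the first, with a median of 21.5. Hist2h2be, an H2B gene whose annotated transcripts held no stem-loop, ran from 8.34 to 14.9 CPM. Its highest value was in the second male dual library, not in the first female control (12.6).

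Dual exposure was set against control within each sex. In females, 35 of 58 histone genes fell and none rose, with a median log2 change of -0.72, against 0.02 over all genes tested. Over all genes 15% were called, 5.64% lower and 9.34% higher. At an unadjusted p under 0.05, 50 of the 58 were lower, against 29.9% of all genes in either direction. In males none was called: the median was 0.20, 0 of 58 had an unadjusted p under 0.05 in edgeR, DESeq2 called 0, and 0% of all genes were called (4.86% with an unadjusted p under 0.05). Calls are edgeR's quasi-likelihood test with a Benjamini-Hochberg adjusted p under 0.05 over 21543 genes. The shares of all genes come from edgeR's fit of all libraries. Counts from other fits below have no such share beside them, so they do not show a change particular to histone genes.

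The H3 genes led the fall in females: 9 of 10 were called, with a median of -0.92. Hist1h3a was at 74.4 and 43.8 CPM in female controls and 34.9 and 24.2 in female dual libraries. It was at 45.2 and 39.3 CPM in paternal and 46.8 and 41.5 in maternal females, on both sides of the second control. In males it was at 35.2 and 29.2 CPM in controls, 45.9 and 46.4 in paternal, 53.9 and 39.4 in maternal and 33.2 and 41.8 in dual libraries. Both female dual libraries were below every other female library, whereas the male dual libraries overlapped the male controls.

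The change of Hist1h3a was -1.0 ± 0.21 (log2, SE) in females (edgeR adjusted p = 0.00492) and 0.21 ± 0.22 in males (adjusted p = 0.943). Hist1h3e was at 191 and 117 CPM in female controls, 103 and 97 in paternal, 125 and 105 in maternal and 93.4 and 65.8 in dual females. The dual libraries were again the lowest of the females, and the first control was far above the rest. Its change was -0.95 ± 0.20 (edgeR adjusted p = 0.00549). Hist1h3i and Hist1h3c, also H3 genes, changed by -0.91 ± 0.21 and -0.94 ± 0.23 (edgeR adjusted p = 0.00743 and 0.0108).

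Among H4 genes, 7 of 13 were called lower in dual females, with a median of -0.63. Hist1h4h was at 429 and 298 CPM in female controls, 309 and 313 in paternal, 309 and 298 in maternal and 255 and 202 in dual females. In males it was at 267 and 235 CPM in controls, 350 and 315 in paternal, 370 and 286 in maternal and 239 and 294 in dual libraries. The female dual libraries were below all 6 others. The change was -0.67 ± 0.15 in females (edgeR adjusted p = 0.00818) and 0.09 ± 0.15 in males (adjusted p = 0.965).

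Hist2h4, an H4 gene of the chromosome 3 cluster with almost wholly unique sequence (99% of 50-base stretches), gave a like picture. It was at 126 and 74.7 CPM in female controls, 79.5 and 79.6 in paternal, 68.2 and 75.5 in maternal and 62.8 and 51.3 in dual females. In males it was at 75.5 and 56.5 CPM in controls, 81.6 and 87.4 in paternal, 114 and 79.1 in maternal and 75.7 and 88.2 in dual libraries. Female dual libraries were the lowest females and male dual libraries lay above both male controls, by a narrow margin in one. The female change was -0.81 ± 0.20 (edgeR adjusted p = 0.0115).

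Among H2B genes, 10 of 16 were called lower in dual females, and among H2A genes 9 of 14, with medians of -0.71 and -0.80. Hist3h2ba, an H2B gene on chromosome 11, was at 102 and 81.1 CPM in female controls, 74.5 and 71.7 in paternal, 76.3 and 73.6 in maternal and 70.4 and 52.9 in dual females. In males it was at 72.5 and 65.4 CPM in controls, 83 and 80 in paternal, 82.4 and 67.9 in maternal and 66 and 65 in dual libraries. Here the female controls were the highest 2 of the females, the dual libraries were the lowest, and the male dual libraries were at the low end of the males.

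The change of Hist3h2ba in females was -0.57 ± 0.12 (edgeR adjusted p = 0.0063). Hist1h2ah, an H2A gene of low level, was at 17.4 and 9.29 CPM in female controls against 7.62 and 4.85 in dual females, a change of -1.09 ± 0.27 (edgeR adjusted p = 0.012). With 7.87% unique 50-base stretches its counts cannot be told apart from those of its copies.

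No H1 gene was called in dual females. The 5 tested H1 genes had log2 changes of -0.60 to -0.47 and adjusted p of 0.0809 or more, and 3 of them had an unadjusted p under 0.05 (edgeR); DESeq2 also called none. This rests on single libraries: without the first female dual library 37 of the 58 genes were called, with Hist1h1c and Hist1h1e among them, and without the second female control 52, with all 5 H1 genes. Hist1h1c, a linker histone gene, was at 415 and 222 CPM in female controls, 218 and 217 in paternal, 235 and 224 in maternal and 264 and 171 in dual females. The first dual library was thus above the second control, and the groups overlapped. Whether H1 and core histone genes differ in their response was not tested.

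**Figure D2:**
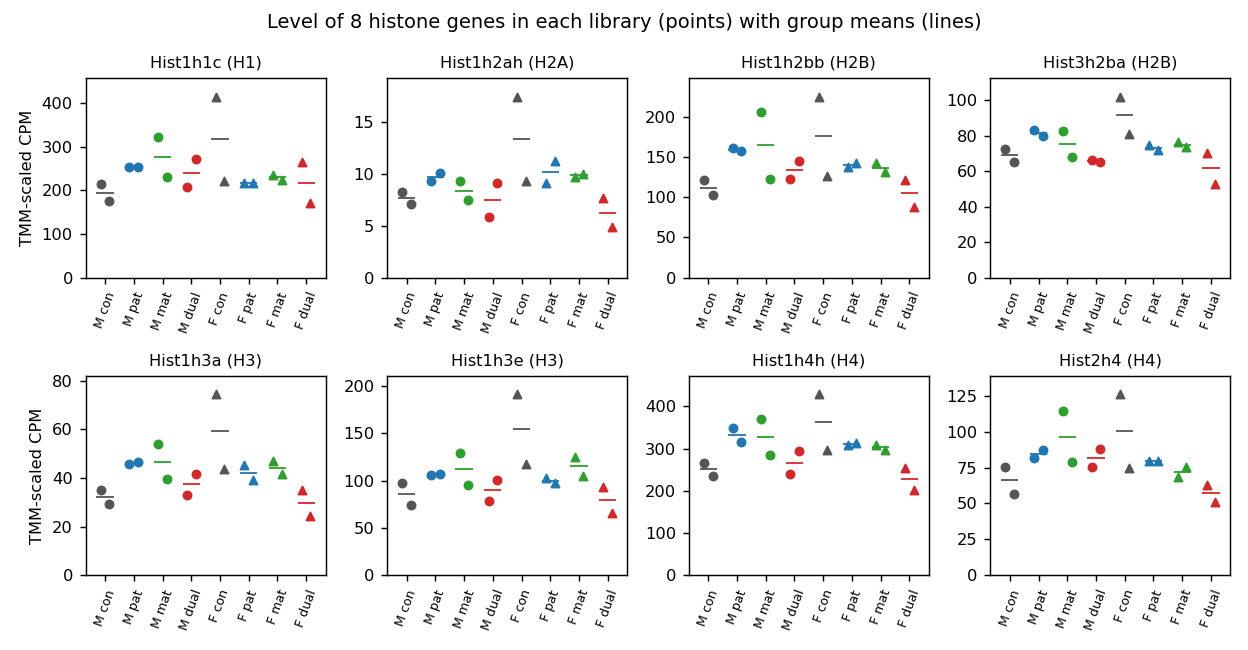
TMM-scaled CPM of 8 histone genes in each library (points; circles male, triangles female) with the mean of each group of 2 (lines); M and F stand for male and female, con, pat and mat for control, paternal and maternal. The first female control library is the highest point in each of the 8 panels, and the female dual libraries are the lowest females in every panel but that of Hist1h1c.

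The count of 35 rests on single libraries. Without the first female control it was 3 (Hist1h3a, Hist1h3e and Hist3h2ba, at -0.57, -0.56 and -0.40), with a median over the 58 genes of -0.26. Without the second female dual library it was 0, with a median of -0.53, and without the second female control it was 52, with a median of -1.09. The groups did not overlap, dual below control, for 33 of the 58 genes in females, against 23.1% of all genes tested.

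An edgeR fit of the female control and dual libraries alone called 0 of the 58 genes, with a median of -0.76, and DESeq2 on all libraries called 22. With protein-coding genes alone, edgeR called 7.

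Other lists were read in the same comparison, beside 5.64% of all genes called lower and 9.34% called higher. Of 8 small non-coding and nuclear RNAs 6 rose. The list summed to 8300 and 8845 CPM in female dual libraries, 3702 to 5415 in other females and 3317 to 6152 in males. Most of each sum was the long nuclear RNA Malat1, at 5672 and 5847 CPM in female dual libraries and 2704 to 5042 elsewhere. Xist was at 1641 and 1671 CPM in female dual libraries, 503 to 815 in other females and at most 1.99 in males. Meninges markers were at 98.7 and 443 CPM in female controls and 260 and 265 in female dual libraries, with 1 of 13 called higher. Counts in the other marker lists were small: 2 of 13 endothelial, 3 of 9 red cell, 2 of 10 thalamic, 2 of 14 cortical neuron and 1 of 11 interneuron genes were called lower, and 0 of 12 microglial and 0 of 11 striatal genes were called by edgeR. Their part in the histone result was not tested.

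Of the 5 types, the H3 share of the family's mRNA separated all dual libraries from all others. H3 genes made up 13.6% and 13.5% of summed histone CPM in male dual libraries and 13.4% in each female dual library. In the other 12 libraries the H3 share ran from 13.9% to 15.8%, so all 4 dual libraries were below all others, by a narrow margin in males. The H2A, H2B and H4 shares of the dual libraries, at 4.65% to 5.01%, 22.7% to 24.5% and 33.7% to 35.8%, overlapped those of the others. A share within the family does not depend on the scaling between libraries.

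The H1 share went the other way. It was 23.2% and 23.8% in dual males and 24.7% and 22.6% in dual females, against 21.3% in each male control and 22.5% and 20.2% in female controls. Dual libraries were above all 4 controls, but the male maternal libraries, at 23.4% and 22.8%, overlapped them. The shares are a description over genes chosen with earlier results known and carry no p. The TEC and sense-intronic share, which was high in the female dual libraries, was 0.511% and 0.365% in the male dual libraries, against 0.429% and 0.534% in the male controls. Its part in these shares was not tested.

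**Figure D3:**
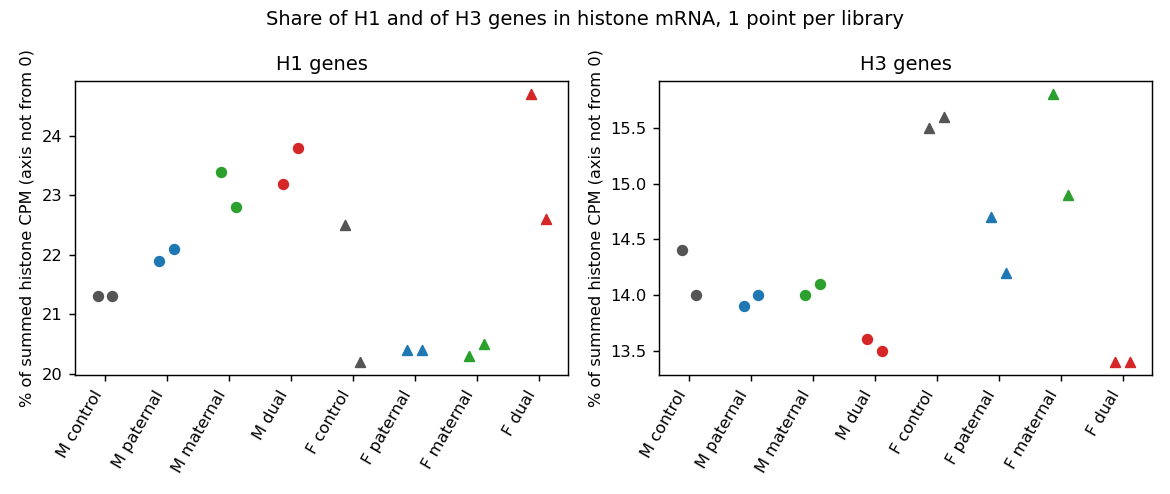
Share of H1 genes (left) and H3 genes (right) in summed histone CPM, 1 point per library, by sex (M male, F female) and exposure; the vertical axes do not start at 0. H3 shares of the 4 dual libraries (13.4% to 13.6%) lie below the 12 others, and their H1 shares (22.6% to 24.7%) lie above the 4 controls.

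Averaged over the sexes, dual exposure against control gave a median log2 change of -0.27 for the 58 genes, and no gene was called, where 3.36% of all genes were called, 0.641% lower and 2.72% higher. At an unadjusted p under 0.05, 17 genes were lower and 0 higher in edgeR (19.7% of all genes in either direction), and DESeq2 called 1. The lowest adjusted p belonged to Hist3h2ba (-0.32 ± 0.09, edgeR adjusted p = 0.06), Hist1h3e (-0.45 ± 0.15, 0.101) and Hist1h3i (-0.45 ± 0.15, 0.106). The median was -0.02 without the first female control, and without the second female control 30 genes were called. Without the second male dual or the first female dual library 1 was called, Hist1h2ai and Hist3h2ba.

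Dual libraries were also compared with the single exposures, which do not involve the control libraries. Against paternal exposure the median was -0.27. In the fit of all libraries 1 of 58 genes was called, Hist1h4h (-0.38 ± 0.11, edgeR adjusted p = 0.0365), where 8.81% of all genes were called, 2.16% lower and 6.65% higher. Against maternal exposure the median was -0.32 and none was called, where 5.76% of all genes were called, 1.34% lower and 4.42% higher. At an unadjusted p under 0.05, 14 genes were lower than in paternal and 26 lower than in maternal libraries (edgeR; 24.6% and 21.1% of all genes in either direction), and none was higher in either. DESeq2 called 1 (Hist3h2ba) and 0. These counts depend on the libraries in the fit, with medians of -0.28 and -0.32 when edgeR was fitted to the compared groups alone, where 22 genes were called lower than in paternal and 11 lower than in maternal libraries. Without the first female control and first male maternal library 27 and 1 were called. The lowest adjusted p against maternal exposure belonged to Hist1h4h (-0.35 ± 0.11, edgeR adjusted p = 0.065), Hist1h3g, an H3 gene (-0.55 ± 0.18, 0.0831) and Hist2h2ab, an H2A gene that shares exon bases with Gm15444 (-0.79 ± 0.26, 0.0891).

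Against paternal exposure the median was -0.07 for H1 and -0.31 for H3 genes, and against maternal exposure -0.14 and -0.44. Without the first female dual library, Hist1h4h was joined by Hist1h2bj, Hist2h3c2 and Hist3h2ba against paternal exposure, 4 in all, and 6 genes were called against maternal exposure. Without the second female dual library none was called in either. Against paternal exposure none was called without the first male dual, first male paternal or either female paternal library, and 2 were called without the second male paternal library. Without the second male dual library 3 and 2 were called, and without the second male maternal library 6 were called against maternal exposure.

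Non-additivity, the dual effect less both single effects added up, had a median of -0.32, below 0 in all 58 genes, and no gene was called, where 4.21% of all genes were called, 0.724% lower and 3.49% higher. At an unadjusted p under 0.05, 7 genes were lower in edgeR (19.6% of all genes in either direction), led by Hist1h4h (-0.44 ± 0.15, adjusted p = 0.112), and DESeq2 called 0. A high control library raises this contrast, and without the first female control 35 genes were called lower, with a median of -0.57. Without the second male paternal (Hist2h2ab) or the first female dual library (Hist2h3c2) 1 was called.

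With all libraries in the fit, no histone gene and no other gene was called for a single exposure. Averaged over the sexes, the median was 0.02 for paternal and 0.06 for maternal exposure, with 0% of all genes called in each (8.45% and 3.79% with an unadjusted p under 0.05). Of the 58 genes, 1 was higher at an unadjusted p under 0.05 for paternal and 0 for maternal exposure (edgeR), and DESeq2 called 0 in both. Hist2h3c2, an H3 gene of low level, was the lowest in p for both, at 0.72 ± 0.34 (edgeR adjusted p = 0.59) and 0.42 ± 0.35 (0.998).

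The medians were 0.26 and 0.31 without the first female control, and -0.16 and -0.13 without the second.

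With all libraries these averages hold opposite values in the sexes. In males the 58 genes had a median of 0.42 after paternal and 0.50 after maternal exposure, and in females of -0.44 and -0.37. At an unadjusted p under 0.05 (edgeR), 18 and 28 were higher in males (10.4% and 7.92% of all genes in either direction), and 20 and 4 lower in females (7.89% and 4.7%). The direction in females turned without the first female control library, with medians of 0.07 and 0.12. Without the second female control the medians were -0.79 and -0.73. Whether histone genes were called lower in females thus depended on which female control was left out. In males the medians stayed between 0.34 and 0.55 for paternal and between 0.20 and 0.74 for maternal exposure over the libraries left out, with none called.

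Both paternal male libraries exceeded both male controls for 54 of 58 genes, where 20.6% of all genes did so. For maternal males this held for 40 (19.5% of all genes) and for dual males for 21 (18%). In females, paternal libraries lay below both controls for 8 (18%) and maternal for 2 (15.7%). The genes varied together over the libraries, so the genes in each count are not separate observations.

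Hist1h2bb, an H2B gene, may stand for this pattern. It was at 121 and 103 CPM in male controls, 161 and 157 in paternal, 206 and 123 in maternal and 122 and 145 in dual males. In females it was at 225 and 126 CPM in controls, 138 and 142 in paternal, 142 and 131 in maternal and 121 and 88.4 in dual libraries. The male controls were the lower end of the males, while the second female control lay among the exposed females. Both male controls were below all 6 exposed male libraries for 18 of the 58 genes. The share of all genes in this order was not computed, so the count is not read as particular to histone genes.

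The test of the difference between the sexes itself called 2 genes for dual exposure, where 3.5% of all genes were called, 0.733% higher and 2.76% lower. These were Hist1h3a (male minus female effect 1.21 ± 0.31, edgeR adjusted p = 0.0381) and Hist2h4 (1.12 ± 0.28, 0.0387). The median over the 58 genes was 0.94, and 46 were higher at an unadjusted p under 0.05 (20.4% of all genes in either direction). For paternal and maternal exposure the medians were 0.84 and 0.82 and none was called (0% of all genes in each), with 45 and 42 genes at an unadjusted p under 0.05 (edgeR; 10.8% and 9.86% of all genes) and 0 called by DESeq2. The lowest p belonged to Hist1h4b in both, at 2.84 ± 0.52 (adjusted p = 0.295) and 2.11 ± 0.52 (0.418, edgeR).

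All 3 of these contrasts share the same control libraries, so they are not separate evidence. Without the first female control the medians for paternal, maternal and dual exposure were 0.36, 0.39 and 0.48 with none called, and without the second female control they were 1.21, 1.17 and 1.33 with 48, 43 and 51 called. For dual exposure, none was called either without the second female dual, second male control or second male dual library, and 4 were called without the first female dual library. Over all exposures, no histone gene was called between male and female libraries, where 0.877% of all genes were called, 0.404% higher and 0.473% lower. The median was -0.05, 4 genes were lower at an unadjusted p under 0.05 in edgeR (11.4% of all genes in either direction), and DESeq2 called 0. In males, 2 were called higher without the first female control, and 4 lower without the second.

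**Figure D4:**
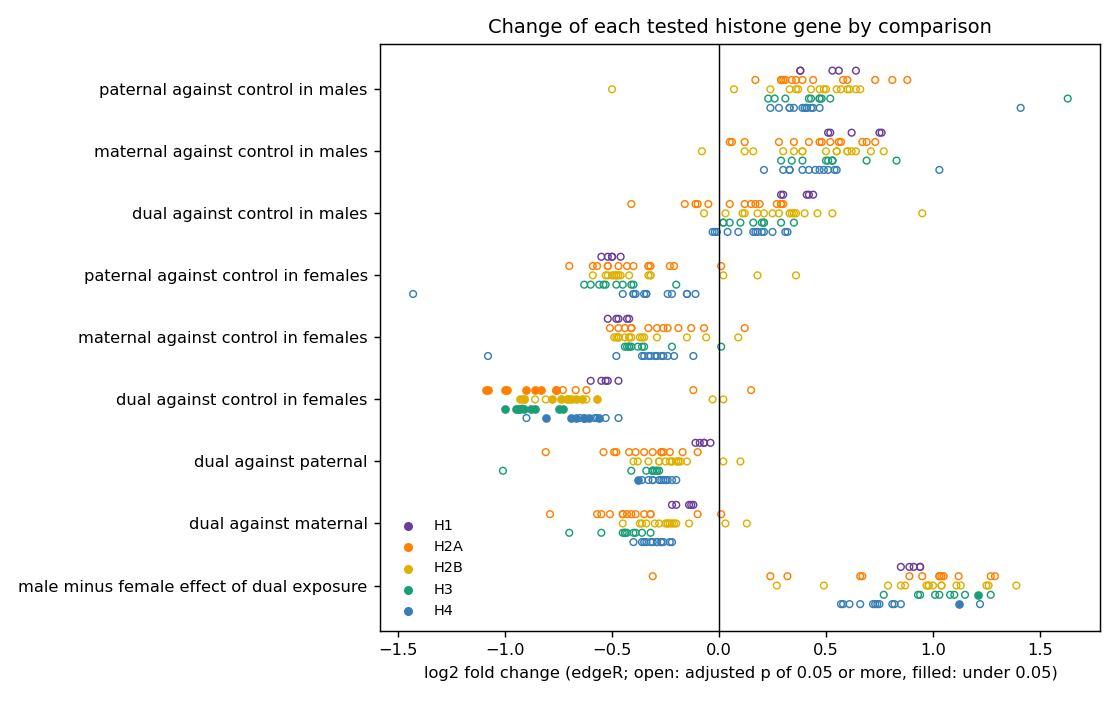
Log2 fold change of each of the 58 tested histone genes in 9 comparisons, coloured by histone type; filled points passed edgeR's test at an adjusted p under 0.05 and open points did not. Medians lie at 0.42, 0.50 and 0.20 for the 3 exposures in males and at -0.44, -0.37 and -0.72 in females, with filled points for dual females (35), dual against paternal (1) and the sex difference of dual exposure (2).

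Genes of related function were read from lists in the same fits, to be set against the 5.64% of all genes called lower and 9.34% called higher in dual females. Among 11 replication-independent histone variants, which can replace the canonical forms and whose making is not confined to S phase, 3 fell in dual females. These were the linker variant H1fx (-0.64 ± 0.13), H2afx, which is phosphorylated at DNA breaks (-0.68 ± 0.15), and the macroH2A gene H2afy2 (-0.27 ± 0.07). Their edgeR adjusted p were 0.00347, 0.00596 and 0.0146. All 3 also passed the test of the sex difference, at 0.72 ± 0.19, 0.84 ± 0.21 and 0.38 ± 0.10. H1fx was at 68.7 and 60.5 CPM in female controls and 47.1 and 36 in dual females, and the groups did not overlap.

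Of 41 S-phase genes, 2 fell in dual females: Dut, the dUTPase (-0.50 ± 0.14), and Mcm7, a subunit of the replicative helicase (-0.42 ± 0.14; edgeR adjusted p = 0.0255 and 0.0474). The list's median was -0.34, and its count is near the share of all genes called lower. Of 17 histone chaperones Ssrp1, a subunit of the FACT complex, fell (-0.34 ± 0.08, edgeR adjusted p = 0.00955), 1 gene, again near that share. Of 25 genes of histone mRNA processing and decay, Ctif, a translation factor of the cap-binding complex, and Eif4a3, a helicase of the exon junction complex, fell (-0.30 ± 0.08 and -0.29 ± 0.08, edgeR adjusted p = 0.0133 and 0.0273), with a list median of -0.12. That count, 2 of 25, is also near the share of all genes called lower.

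Slbp itself did not separate the groups: it was at 38.9 and 28.3 CPM in female controls and 31.6 and 32.4 in dual females. Of 17 regulators of histone transcription, E2f2, an S-phase transcription factor, fell (-0.82 ± 0.26) and Pou2f1, the octamer-binding factor, rose (0.36 ± 0.10; edgeR adjusted p = 0.0446 and 0.0205), 1 gene each way, near or below the shares of all genes. Npat, the coactivator of histone clusters, was at 46.9 and 40.1 CPM in female controls and 51.4 and 41.4 in dual females. None of 24 G2 and M phase genes or 15 radial glia and progenitor markers was called by edgeR, with medians of -0.33 and -0.24.

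The libraries that were extreme for histones were extreme for these lists too. The S-phase list summed to 1630 CPM in the first female control, against 923 to 1460 elsewhere, with the lowest value in the second female dual library. The G2 and M list was at 2045 CPM there, against 1017 to 1597 elsewhere, and the radial glia list at 1903 against 1316 to 1861. Histone CPM per S-phase CPM was 4.21 in the first female control, 3.59 in the second, 3.15 and 3.01 in the female dual libraries and at least 3.27 in the other females. In males it ran from 2.98 in the second control to 3.76 in the first maternal library, with 3.04 and 3.38 in the dual libraries. Per G2 and M phase CPM the order of the female controls turned, at 3.35 in the first and 3.64 in the second. The female dual libraries were at 2.57 and 2.73, below the 2.94 or more of the other females. In males that ratio overlapped, at 3.04 and 2.67 in controls and 2.62 and 2.83 in dual libraries. Per radial glia and progenitor CPM the female dual libraries, at 2.45 and 2.11, overlapped the other females, which began at 2.41. The part of cell cycle content and of the low meninges level of that control library in the histone results was not tested.

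**Figure D5:**
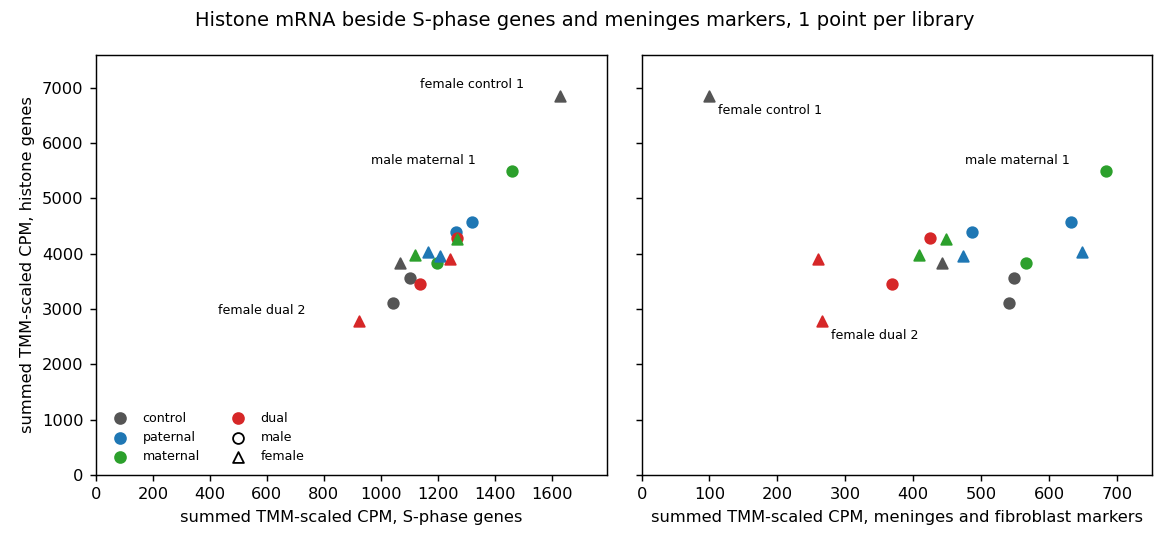
Summed TMM-scaled CPM of the histone genes against that of 41 S-phase genes (left) and of 13 meninges and fibroblast markers (right), 1 point per library, coloured by exposure, with circles for males and triangles for females. The first female control library has the most histone and S-phase mRNA (6860 and 1630 CPM) and the least meninges signal (98.7 CPM); the second female dual library has the least histone and S-phase mRNA (2779 and 923 CPM).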

How the data were processed

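Per the labels' protocols, total RNA of fetal cortex was made into libraries with the Illumina TruSeq Standard Total RNA kit. For each library the authors deposited raw, unscaled counts of 55359 gene IDs. Trimmomatic, STAR and featureCounts on GRCm39 (mm39) are named in the submitters' processing notes. Not given in the sources used here are versions, annotation release, strandedness and how reads matching several places were counted, so values of overlapping genes and close copies are uncertain.

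Symbols, gene types, exon lengths and transcripts were taken from GENCODE M21 (GRCm38) by gene ID, which gave 52083 IDs a symbol, and promoters from RefSeq (GRCm38.p6). Counts were filtered with filterByExpr over the 8 groups (minimum count 10, minimum total 15), which left 21543 genes. After TMM scaling, edgeR 4.0.16 in R 4.3.3 fitted a quasi-likelihood model of the 8 group means to all libraries (glmQLFit) and tested contrasts two-sidedly (glmQLFTest), with 8 residual degrees of freedom and Benjamini-Hochberg adjustment over all genes at 0.05. DESeq2 1.42.0 was an alternative, beside its size factors, no filter, a replicate block, an additive model, the compared groups alone, protein-coding genes alone and leaving out each library; fits without the 2 libraries of highest histone share and without the female dual libraries, and leaving out libraries for single exposures within a sex, were chosen after seeing the data. The fit was tested on simulated data.

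Members and gene lists were chosen with earlier results of these data known. Named genes were the 4 of highest level per length of each type, up to 8 called members per direction and comparison by p (3 where none was called), up to 3 genes of a related list per comparison, germ line members, and up to 6 abundant members without a stem-loop. Hist2h2be, Hist3h2a, Hist1h2ap, Hist1h2bq, Hist1h2ao, Slbp, Npat, the head-to-head partners named and the genes named as called without a library were chosen after their values were seen. Replicates differed by more than sampling noise in all 8 groups, with a median squared difference of 1.57 to 4.59 in units of counting error against 0.455 for noise alone, so none was merged. Equal replicate numbers did not pair samples: over 28 pairs of groups the correlation of replicate differences ran from -0.143 to 0.183, with 1 over 0.1.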

Additional observations from a re-analysis of the deposited data

Results flagged for a closer look

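Of 36 sets of 4 or 8 libraries examined (each exposure and each sex, for each histone type and for all), 9 held a library far from the rest. The limit used is one that chance passes in about 1 of 20 sets. The first female control library was the highest in 8 of them. Among the 4 controls it stood apart for H1 genes (1545 CPM, next 773) and H2B genes (1629, next 881). Among the 8 female libraries it stood apart for H1 (1545, next 965), H2A (369, next 239), H2B (1629, next 975), H3 (1064, next 677), H4 (2253, next 1517) and for all histone genes (6860, next 4273). These sets share that library and are not separate findings. The first male maternal library was the highest of the 4 maternal libraries for H1 genes (1287 CPM, next 871).

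Hist1h3a and Hist2h4 are listed because the effect of dual exposure differed between the sexes in edgeR's test of that difference, by 1.21 and 1.12 on the log2 scale (adjusted p = 0.0381 and 0.0387). Without the first female control library the differences were 0.78 and 0.70, with adjusted p of 0.0839 and 0.0832.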

How the results depend on the processing

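Counts of called genes moved with the fit, and the cause was not tested. The counts of these other fits are given without the share of all genes called in the same fit. Without the low-count filter edgeR called 31 genes for dual against control, 35 against paternal, 37 against maternal, 19 for non-additivity, 44, 43 and 48 for the sex difference of paternal, maternal and dual exposure, 3 for dual males and 9 for male against female. With the compared groups alone it called 22 against paternal, 11 against maternal, 1 for dual males, 0 for dual females and 0 for the sex difference of dual exposure. Protein-coding genes alone gave 0 against paternal, 7 for dual females and 0 for that sex difference, and the additive model gave 0 against paternal. DESeq2 called 1 for dual against control, 22 for dual females and 4 for the sex difference. Without the first female control and first male maternal library the counts were 4 for paternal against control, 27 against paternal, 1 against maternal, 15 for non-additivity, 1 for the sex difference and 5 for dual females.

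With the replicate number as a block, which the data did not show to pair samples, 1 gene was called for dual against control, 2 against paternal, 4 against maternal, 15 for the sex difference of dual exposure and 38 for dual females; no other count changed. Leaving out 1 library at a time gave 0 to 30 for dual against control, 0 to 4 against paternal, 0 to 6 against maternal, 0 to 35 for non-additivity, 0 to 48, 0 to 43 and 0 to 51 for the sex difference of paternal, maternal and dual exposure, 0 to 52 for dual females and 0 to 4 for male against female. Where 1 library was left in a group, it was assumed to vary like the others.

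Directions turned for Hist1h3e and Hist1h3i (paternal against control: -0.31 to 0.04 and -0.32 to 0.08 over the libraries left out, with 0.04 and 0.08 without the first female control, also when the first male maternal library was left out too) and for Hist1h4c (maternal against control: -0.01 to 0.31, with -0.01 without the first male maternal or the second female control library). None of these was called in edgeR. Median changes of dual females stayed between -1.09 and -0.26 over the libraries left out. Among tested genes, counts over all libraries were lowest for Hist1h2ap (138), Hist1h2br (154), Hist1h2bq (481), Hist2h2ab (621), Hist2h3c2 (776) and Hist1h4b (855), which limits them most.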

Other observations

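In 8 of the head-to-head pairs both genes were tested, and the H2B gene was at the higher level per length in 6. Hist1h2ae and Hist1h2bg were at 32.2 and 189 CPM per kilobase (5.87-fold), and Hist1h2ak and Hist1h2bn at 74.6 and 355 (4.76-fold). Hist1h2an and Hist1h2bp went the other way, at 20 and 15.7 CPM per kilobase. In dual females Hist1h2ae and Hist1h2bg had log2 changes of -0.90 and -0.69, and Hist1h2an and Hist1h2bp of -0.99 and -0.86. Hist1h2ak had 43% unique 50-base stretches and Hist1h2bn 13.6%.

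Hist1h4b, an H4 gene that shares 223 exon bases with 4930558J22Rik, had low counts, between 18 and 180 per library, and large single-exposure values within each sex, passed by Hist2h3c2 in paternal males (1.63 against 1.41). It was at 1.14 and 1.04 CPM in male controls, 2.83 and 2.99 in paternal and 2.38 and 2.09 in maternal males. In females it was at 5.43 and 2.34 CPM in controls, 1.56 and 1.31 in paternal and 2.15 and 1.52 in maternal libraries. Male groups did not overlap in either exposure and female groups did not either, in opposite directions, but none passed edgeR's test (adjusted p of 0.341, 0.59, 0.263 and 0.98 for paternal and maternal males and paternal and maternal females).

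Members with a stem-loop in an annotated transcript and those without had medians of -0.73 (41 tested) and -0.70 (17 tested) in dual females. Members with under 25% unique 50-base stretches had a median of -0.81 and the others of -0.69. In the Hist1 cluster 31 of 50 tested genes fell, with a median of -0.72, and in the Hist2 cluster 2 of 5, with a median of -0.81. In the Hist3 cluster 1 of 2 fell, with a median of -0.34, and Hist4h4 fell, at -0.56. Over all genes tested 5.64% were called lower.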
